A study of Vitis vinifera with 23 samples.

Results

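Ripening under high light was followed in the exposed berries of the series, by comparing the ripe stage EL38 with the stage labelled EL34, which the study places at veraison and calls EL35. The comparison takes all exposed samples of these stages, 6 of the 23 samples of the series. The grapes were field-grown Sauvignon blanc, a white cultivar of Vitis vinifera, and each sample is the RNA of whole berries whose seeds had been taken out. The EL38 exposed group (n = 3) and the EL34 exposed group (n = 3) came from bunches whose surrounding leaves and lateral shoots had been removed, and the EL38 control group (n = 2) and the EL34 control group (n = 3) from bunches left in the shade of the canopy. Panels of both treatments stood in the same vineyard. Stage and sampling date cannot be told apart, nor can light and the other effects of leaf removal around the bunch. Expression was measured as FPKM (fragments mapped to a gene, scaled to its length and to the library's mapped fragments) for 29970 genes, and 18140 genes whose mean FPKM reached 1 at EL38 or EL34 in exposed berries were tested. Genes are given by the identifiers of the deposited table, Vv followed by chromosome and position number, for which the study writes VIT_.

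Veraison marks the onset of ripening in a grape berry, from which it softens, loses chlorophyll, breaks down malate and fills with glucose and fructose. Softening depends on pectin-degrading enzymes and expansins, which loosen the wall. Sugar reaches the berry as sucrose and is split by invertases and stored in the vacuole. Flavonols absorb ultraviolet light and are known in the berry skin to respond to sunlight, whereas the white skin of this cultivar makes no anthocyanin.

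Pearson's r of log2(FPKM + 0.1) was 0.917 to 0.924 within EL38 exposed and 0.899 to 0.917 within EL34 exposed, and 0.771 to 0.823 between them. Between 16616 and 16956 genes reached 1 FPKM in each of the 6 samples. The ratio of low FPKM values put the depth of replicates 2 and 3 of the 2 stages at 0.790 to 1.18 relative to each other, but replicate 1 of either stage shared no common ratio with the others, so its relative depth is unknown, as is the absolute depth of all 6. These replicates 1 carry sample numbers ending in the fifties and the others in the sixties, while both EL38 control samples and 2 of the 3 EL34 control samples are in the fifties.

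Seed transcripts stood at unequal levels in the EL34 exposed group. The 11S globulin Vv07s0005g03410, a seed storage protein, was at 2.34, 330.1 and 86.9 FPKM in EL34 exposed replicates 1, 2 and 3, whereas it was listed at 0 in all 3 EL38 exposed samples and was at most 0.338 FPKM in the control samples of the 2 stages. The 2S albumin Vv19s0177g00090, another storage protein, was at 0, 0.207 and 0 FPKM in EL38 exposed, against 2.05, 505 and 36 FPKM in EL34 exposed. Both were therefore high in replicate 2, intermediate in replicate 3 and low in replicate 1 of EL34 exposed. Replicates 2 and 3 are called the libraries with seed transcripts below. Replicate 1 held some as well, so leaving out replicates 2 and 3 did not remove all seed transcripts. The globulin's log2 difference was still -4.61 without them. The summed level of the 16 seed list genes was 417 to 460.4 FPKM in EL38 exposed, against 773 to 1501 FPKM in EL34 exposed, and 442 to 461 FPKM in EL38 control, against 652 to 680.1 FPKM in EL34 control. Of these 16 genes 6 were called lower in EL38 exposed and 0 higher, but 3 and 0 without any one of EL34 exposed replicates 2 and 3 and EL38 exposed replicates 1 and 2, 10 and 1 without EL34 exposed replicate 1, and 1 and 1 without EL34 exposed replicates 2 and 3 together. The globulin and albumin were called lower with all samples (adjusted p = 0.00238 and 0.00712) and not without replicates 2 and 3 (0.218 and 0.328). With all samples 37.5% of the seed list was lower, against 31% of all genes tested. The part of seed RNA in other differences was not tested. Where leaving out EL34 exposed replicates 2 and 3 ended the call of a gene named here, its adjusted p without them is given or its list's count is. The unannotated Vv14s0006g02100 is an exception, for which only the loss of the call is stated. The single EL34 exposed library left was assumed to vary like the other groups.

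Most of the genes tested differed between EL38 exposed and EL34 exposed berries. With limma on log2(FPKM + 0.1) and Benjamini-Hochberg adjustment, 10633 of 18140 genes (58.6%) had an adjusted p of at most 0.05, of which 5008 (27.6%) were higher and 5625 (31%) lower in EL38 exposed. Genes called higher by at least 1 log2 numbered 2083 (11.5%) and those lower by at least 1 log2 3017 (16.6%), and the median log2 difference over all genes tested was -0.04. The 3 and 3 samples did not overlap for 11395 genes (62.8%). Leaving out the 2 libraries with most seed transcripts shifted the log2 differences of the called genes by a median of 0.0077, with 1 EL34 exposed library left. Quantile normalization shifted the median of all genes by 0.14. All log2 differences below are EL38 exposed minus EL34 exposed unless another pair is named, and they understate the change of genes near 0.1 FPKM. P values and standard errors rest on the spread within groups in a fit of all 23 samples in 8 groups. That spread therefore includes control samples and earlier stages, and is not that of the exposed samples compared here alone. The study describes its samples as biological replicates.

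**Figure D1:**
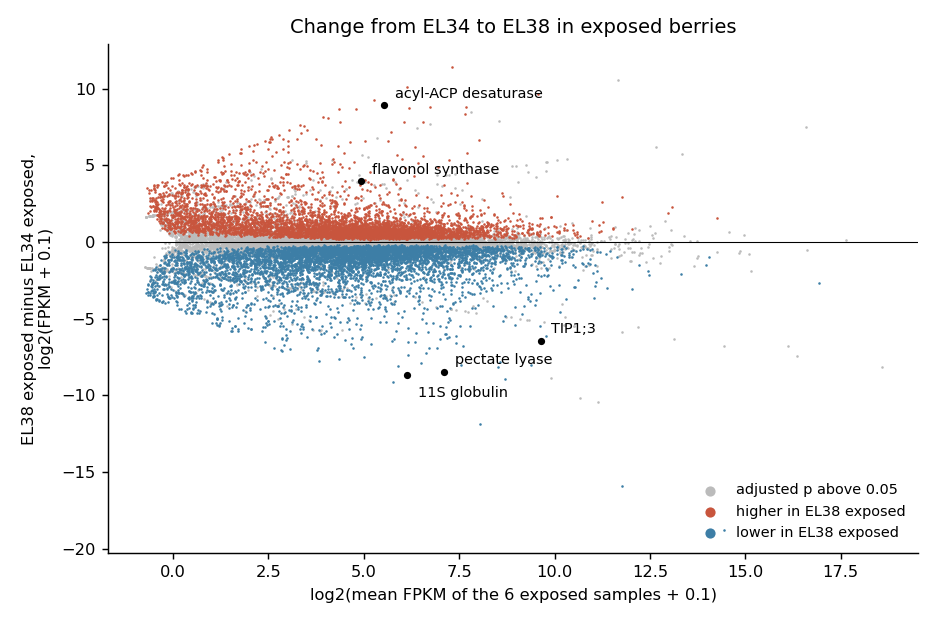
Log2 difference of each tested gene, EL38 exposed minus EL34 exposed, against the log2 of its mean FPKM over the 6 exposed samples plus 0.1. Each point is a gene, red where called higher (5008) and blue where called lower (5625) in EL38 exposed and grey where not called; 5 genes of the text are marked.

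Several genes of cell wall loosening were much lower in ripe exposed berries. Of 38 tested cell wall genes 19 (50%) were lower in EL38 exposed and 2 (5.26%) were higher, against 31% and 27.6% of all genes. The median log2 difference was -0.97, against -0.52 between the control stages. The list drew 32 of its 44 genes from the study's table of developmental genes, which was chosen on control samples of this series, so its direction is not independent of those. Pectate lyase Vv01s0137g00240, which cuts unesterified pectin, had 0.482, 1.15 and 0.531 FPKM in EL38 exposed, against 296, 305 and 217 FPKM in EL34 exposed (log2 difference -8.45, standard error 0.52, adjusted p = 4.20e-10). All 3 ripe samples lay near 1 FPKM or below it and all 3 veraison samples above 200. Another pectate lyase, Vv17s0000g09810, had 29.3, 33.1 and 14.7 FPKM in EL38 exposed, against 2066, 1653 and 1452 FPKM in EL34 exposed (log2 difference -6.13, standard error 0.85, adjusted p = 8.07e-06). Alpha-expansin 10 (Vv06s0004g00070), of a family that loosens the bonds between wall polymers, was at 0.11, 0.234 and 0.496 FPKM in EL38 exposed, against 60.5, 85.3 and 44.6 FPKM in EL34 exposed (log2 difference -7.47, standard error 0.42, adjusted p = 1.59e-10). No ripe sample of these 3 genes came near a veraison sample, whereas the most abundant expansins kept more of their level. EXPA8 (Vv13s0067g02930) averaged 539.7 ± 180 FPKM in EL38 exposed and 3722 ± 594 FPKM in EL34 exposed (SD, n = 3 each), and alpha-expansin 1 (Vv18s0001g01130) 942 ± 174 FPKM in EL38 exposed and 3466 ± 262.8 FPKM in EL34 exposed. Both genes were called lower, and both were chosen for their abundance after their values were seen. The 2 genes called higher were low, beta-expansin EXPR3 (Vv09s0002g06520) with a mean of 1.3 FPKM in EL38 exposed and listed at 0 in EL34 exposed, and exopolygalacturonase Vv12s0057g00380 with 2.12 FPKM in EL38 exposed and 1.28 FPKM in EL34 exposed. The call of Vv12s0057g00380 ended without the libraries with seed transcripts (adjusted p = 0.265).

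Vacuolar water channel genes and an acid phosphatase gene were lower too. The tonoplast aquaporin TIP1;3 (Vv13s0019g00330) was among the strongly expressed genes of veraison, with 17.9, 21.7 and 15.2 FPKM in EL38 exposed, against 1488, 1701 and 1526 FPKM in EL34 exposed (log2 difference -6.43, standard error 0.32, adjusted p = 3.61e-11). The similarly annotated Vv06s0061g00730 had 0.998, 0.343 and 0.121 FPKM in EL38 exposed, against 55.2, 60 and 33.9 FPKM in EL34 exposed (log2 difference -6.67, standard error 0.40, adjusted p = 3.36e-10). The 2 genes differed in their course over the stages, since Vv06s0061g00730 had its highest exposed mean at EL31 (887 FPKM) and Vv13s0019g00330 at EL34. Class B acid phosphatase Vv07s0005g04130 was at 1.86, 2.0 and 0.591 FPKM in EL38 exposed, against 339.9, 381 and 403 FPKM in EL34 exposed (log2 difference -8.04, standard error 0.31, adjusted p = 2.17e-12). A nitrate transporter (Vv02s0154g00260) and a dynein light chain (Vv11s0016g05000) had log2 differences of -6.38 and -6.48, with adjusted p of 3.89e-13 and 3.61e-11. For each of these 5 genes the samples of the 2 stages were separated by more than a factor of 10.

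**Figure D2:**
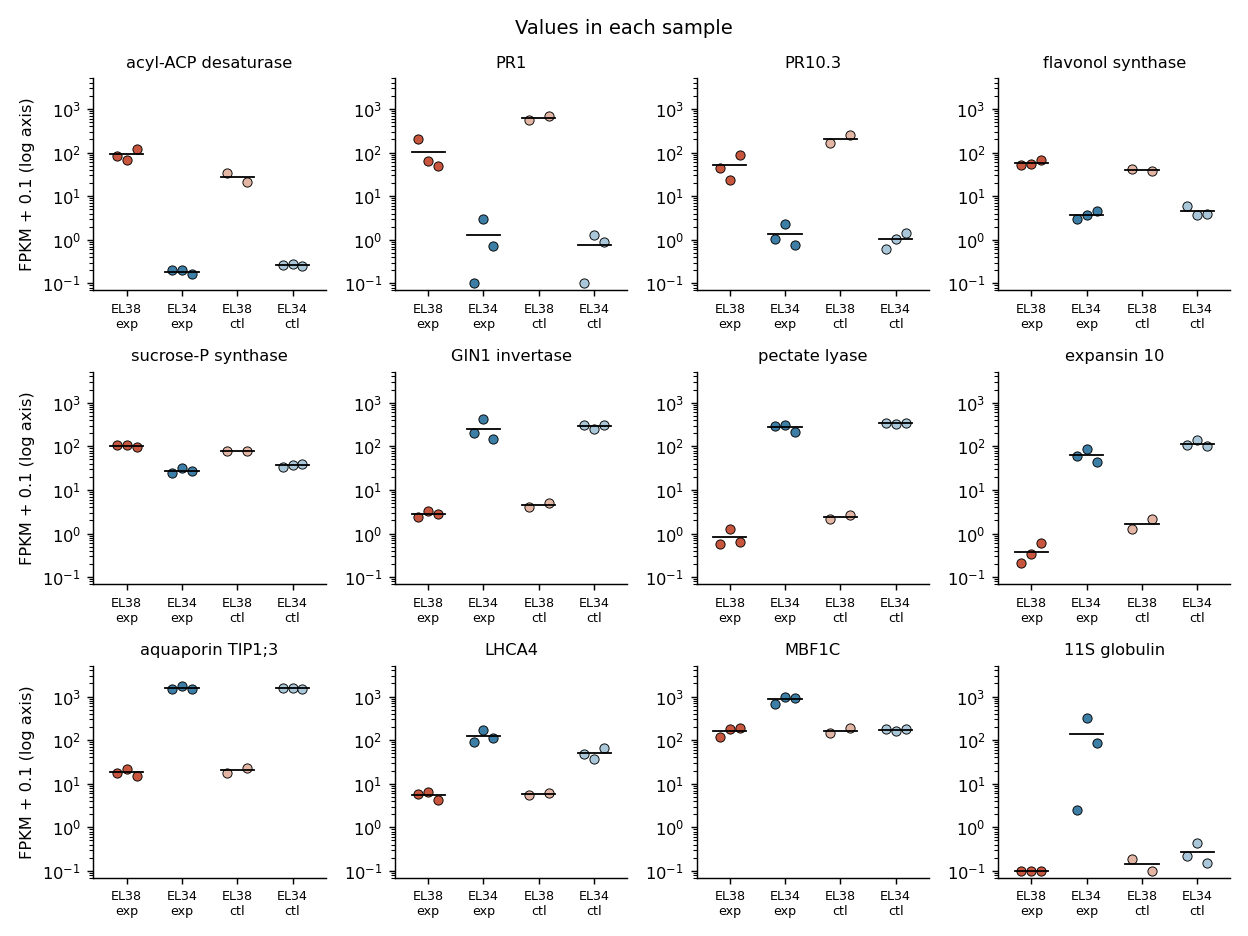
FPKM plus 0.1 on a log axis for 12 genes of the text, 1 point per sample, with the group mean as a bar, for EL38 exposed (3 samples), EL34 exposed (3), EL38 control (2) and EL34 control (3). The EL38 exposed points lie apart from the EL34 exposed points in every panel, and the 11S globulin is high in 2 of the 3 EL34 exposed samples only. The pectate lyase shown is Vv01s0137g00240.

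Sugar genes moved in both directions. Of 19 tested, 7 (36.8%) were higher and 6 (31.6%) lower in EL38 exposed, against 27.6% and 31% of all genes. Vacuolar invertase GIN1 (Vv16s0022g00670), which splits sucrose in the vacuole, was at 2.34, 3.15 and 2.75 FPKM in EL38 exposed, against 197, 421 and 146 FPKM in EL34 exposed (log2 difference -6.35, standard error 0.25, adjusted p = 2.05e-12). GIN2 (Vv02s0154g00090) had 10.2, 9.99 and 11.4 FPKM in EL38 exposed, against 46.2, 46.5 and 45.3 FPKM in EL34 exposed (log2 difference -2.12, standard error 0.11, adjusted p = 6.22e-11), and hexose transporter HT2 (Vv18s0001g05570) had a log2 difference of -1.64. Both vacuolar invertase genes thus fell, while a gene of sucrose synthesis and one of sucrose turnover rose. Sucrose-phosphate synthase Vv05s0029g01140, which makes sucrose phosphate, had 106, 109.9 and 96.7 FPKM in EL38 exposed, against 24.1, 31.2 and 26.4 FPKM in EL34 exposed (log2 difference 1.94, standard error 0.14, adjusted p = 4.80e-09). Sucrose synthase Vv07s0005g00750, which splits sucrose with UDP, averaged 1618 ± 139 FPKM in EL38 exposed and 953 ± 109 FPKM in EL34 exposed (SD, n = 3 each; log2 difference 0.77, standard error 0.20, adjusted p = 0.00284). The ERD6-like sugar transporter Vv05s0020g02170 had 5.33, 6.52 and 5.03 FPKM in EL38 exposed, against 1.49, 1.45 and 2.4 FPKM in EL34 exposed (log2 difference 1.64, standard error 0.32, adjusted p = 3.23e-04). Without the libraries with seed transcripts 3 of the 19 were called higher and 5 lower, and the call of sucrose synthase ended (adjusted p = 0.11).

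The list of organic acid and fermentation genes was close to all genes tested in its shares, with 6 of 23 (26.1%) higher and 7 (30.4%) lower, against 27.6% and 31%. Different alcohol dehydrogenase genes, whose products turn acetaldehyde into ethanol, went opposite ways. Vv14s0068g01760 was at 343, 429.8 and 522 FPKM in EL38 exposed, against 164.2, 144 and 204 FPKM in EL34 exposed (log2 difference 1.33, standard error 0.18, adjusted p = 4.67e-06). The less abundant Vv06s0004g04320 was at 1.92, 1.59 and 0.941 FPKM in EL38 exposed, against 9.45, 14 and 8.43 FPKM in EL34 exposed (log2 difference -2.78, standard error 0.21, adjusted p = 7.76e-09), and its neighbour in number, Vv06s0004g04310, had a log2 difference of -2.56. Glyoxysomal malate dehydrogenase Vv03s0088g01190 was lower (log2 difference -1.39, adjusted p = 3.25e-06) and glyoxysomal citrate synthase Vv12s0142g00610 higher (0.63, adjusted p = 3.94e-05). The mitochondrial 2-oxoglutarate/malate carrier gene Vv18s0001g07320 had 19.9, 21.1 and 43 FPKM in EL38 exposed, against 13.3, 14.5 and 9.69 FPKM in EL34 exposed, with replicate 3 of EL38 well above the others. It was called higher with all samples (adjusted p = 0.00667) and not without the libraries with seed transcripts (0.0977).

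Photosynthesis genes were lower in ripe exposed berries as a group. Of 36 tested, 31 (86.1%) were called lower and 1 (2.78%) higher, against 31% and 27.6% of all genes. The median log2 difference was -1.67 in exposed berries, against -1.07 in control berries. Of the 36 genes 0 were called for a change that differed from control, against 1.17% of all genes tested. Of the 36 members 30 came from the developmental table of these control samples. The summed level of the list was 1862 to 2278 FPKM in EL38 exposed, against 6592 to 8929 FPKM in EL34 exposed. In control berries it was 1867 to 2485 FPKM at EL38, against 4371 to 5773 FPKM at EL34. LHCA4 (Vv17s0000g06350), an antenna protein that gathers light for photosystem I, was at 5.76, 6.36 and 4.1 FPKM in EL38 exposed, against 89.9, 175 and 115 FPKM in EL34 exposed (log2 difference -4.49, standard error 0.24, adjusted p = 7.73e-11). LHCA1 (Vv13s0019g04140), of the same antenna, was at 10.5, 13.1 and 9.84 FPKM in EL38 exposed, against 209, 304 and 177 FPKM in EL34 exposed (log2 difference -4.33, standard error 0.20, adjusted p = 9.64e-12). LHCA6 (Vv11s0016g00730) had a log2 difference of -4.26 and LHCA2 (Vv01s0010g03620) one of -2.97, with adjusted p of 7.09e-08 and 3.20e-09. In all 4 antenna genes every EL38 exposed sample lay below every EL34 exposed sample. Samples of the 2 stages did not overlap, in either direction, for 62.8% of all genes tested. LHCA4, LHCA1 and LHCA6 were named for the largest falls of the list, and LHCA2 because the study measured it by RT-PCR. The LHCII CAB-1 gene Vv19s0014g00160, of the photosystem II antenna, was already low at EL34, with 3.11, 3.66 and 4.58 FPKM in EL38 exposed, against 3.66, 6.93 and 3.42 FPKM in EL34 exposed, and the groups overlapped (adjusted p = 0.557). The 1 gene called higher, annotated as PsbC, a core protein of photosystem II (Vv18s0001g09110), had 43.7, 35.5 and 50.7 FPKM in EL38 exposed, against 27.5, 23.4 and 19.4 FPKM in EL34 exposed.

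The early light-inducible protein ELIP1 (Vv05s0020g04110), which binds chlorophyll in plastids under excess light, was not called. It was at 1993, 1781 and 2137 FPKM in EL38 exposed, against 2718, 1816 and 2184 FPKM in EL34 exposed (log2 difference -0.17, standard error 0.25, adjusted p = 0.577). The groups overlapped, with the lowest value in EL38 replicate 2. Among 11 tested isoprenoid genes 8 (72.7%) were lower and 2 (18.2%) higher, against 31% and 27.6% of all genes. Phytoene synthase makes the colourless carotenoid phytoene, and 2 of its genes went opposite ways. Vv04s0079g00680 had 7.72, 7.8 and 6.2 FPKM in EL38 exposed, against 18.5, 21.3 and 15.6 FPKM in EL34 exposed (log2 difference -1.33, standard error 0.17, adjusted p = 3.96e-06). Vv13s0019g01270 had 6.67, 5.28 and 7.48 FPKM in EL38 exposed, against 3.77, 3.5 and 4.13 FPKM in EL34 exposed (log2 difference 0.74, standard error 0.16, adjusted p = 6.03e-04). Epsilon-ring carotene hydroxylase Vv08s0007g04530, of lutein synthesis, and linalool synthase Vv00s0385g00010, which makes a floral monoterpene, were lower, with log2 differences of -1.49 and -1.84.

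**Figure D3:**
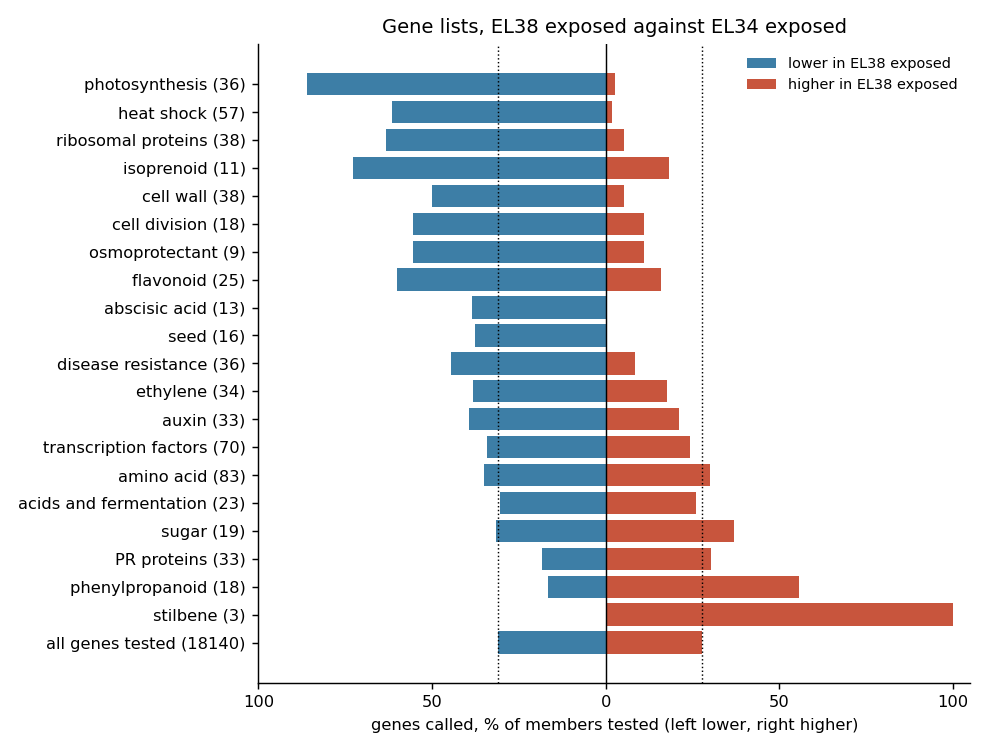
Share of the tested members of each gene list called higher (right, red) or lower (left, blue) in EL38 exposed against EL34 exposed, in percent, with the number tested in brackets. The dotted lines give the shares over all 18140 genes, 27.6% higher and 31% lower; photosynthesis genes reach 86.1% lower and phenylpropanoid genes 55.6% higher.

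Flavonoid genes were mostly lower, with exceptions among flavonol synthases and early enzymes. Of 25 tested genes 15 (60%) were lower and 4 (16%) higher in EL38 exposed, against 31% and 27.6% of all genes. The median log2 difference was -0.69, and 1 further member, Vv18s0001g03510, stayed under the filter. The regulator MybPA2 (Vv11s0016g01320), which in grape activates proanthocyanidin (tannin) genes, was at 0, 0.0957 and 0 FPKM in EL38 exposed, against 5.43, 7.14 and 6.19 FPKM in EL34 exposed (log2 difference -5.66, standard error 0.29, adjusted p = 4.31e-11). It was close to absent in all 3 ripe samples. MybPA1 (Vv15s0046g00170), with the same role, was at 9.35, 8.62 and 29.1 FPKM in EL38 exposed, against 23.4, 29.9 and 30.8 FPKM in EL34 exposed, and replicate 3 of EL38 overlapped the veraison samples (log2 difference -1.06, standard error 0.33, adjusted p = 0.010; called in 12 of 18 alternative settings). Leucoanthocyanidin dioxygenase LDOX (Vv02s0025g04720), which makes the anthocyanidins that tannins are built from, was at 58.1, 63.5 and 89.1 FPKM in EL38 exposed, against 412, 367 and 315 FPKM in EL34 exposed (log2 difference -2.39, standard error 0.14, adjusted p = 2.65e-10). Dihydroflavonol reductase Vv18s0001g12800, the step before it, had 54.7, 48.3 and 62.2 FPKM in EL38 exposed, against 101, 96.2 and 97.1 FPKM in EL34 exposed (log2 difference -0.84, standard error 0.18, adjusted p = 5.84e-04). Anthocyanidin reductase BAN (Vv00s0361g00040) was at 2 to 4 FPKM at both stages and was not called (adjusted p = 0.605). The other genes annotated as LDOX, Vv11s0118g00360, Vv08s0105g00380 and Vv03s0017g00830, were lower with log2 differences of -0.98, -0.44 and -0.38. Without the libraries with seed transcripts the calls of MybPA1 and Vv03s0017g00830 ended (adjusted p = 0.194 and 0.331).

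Flavonol synthase genes, whose products shield tissue from ultraviolet light, differed among themselves. Vv18s0001g03430 was at 50.5, 55.2 and 65.8 FPKM in EL38 exposed, against 2.93, 3.58 and 4.39 FPKM in EL34 exposed (log2 difference 3.95, standard error 0.73, adjusted p = 1.66e-04). Its level in control berries was 40.8 and 37.2 FPKM at EL38, against 5.8, 3.62 and 3.76 FPKM at EL34, so that the gene was high at EL38 in both treatments. Vv18s0001g03470 was at 41.7, 69.5 and 64 FPKM in EL38 exposed, against 74.5, 56.6 and 70.1 FPKM in EL34 exposed, and the groups overlapped (log2 difference -0.22, standard error 0.51, adjusted p = 0.728). In control berries this gene was at 5.99 and 2.7 FPKM at EL38, against 4.56, 1.73 and 7.65 FPKM at EL34, below every exposed sample. Near-identical copies of this family lie next to each other in number, and reads that fit more than 1 copy can be split between them. The flavonol regulator MybF1 (Vv07s0005g01210) was at 2.25, 4.35 and 4.38 FPKM in EL38 exposed, against 18.5, 22.2 and 19 FPKM in EL34 exposed (log2 difference -2.47, standard error 0.24, adjusted p = 1.14e-07). MybF1 was thus lower in ripe berries while neither of these flavonol synthases was called lower. A further flavonol synthase, Vv03s0017g00710, had 40.6, 43.2 and 39.3 FPKM in EL38 exposed, against 42.7, 53.6 and 54.8 FPKM in EL34 exposed (adjusted p = 0.0593).

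Genes of the first flavonoid enzymes moved both ways. Chalcone isomerase Vv13s0067g03820 had 167, 161 and 188 FPKM in EL38 exposed, against 90.9, 69 and 84.6 FPKM in EL34 exposed (log2 difference 1.08, standard error 0.13, adjusted p = 1.88e-06), and the flavanone 3-hydroxylases Vv04s0023g03370 and Vv18s0001g14310 were higher with log2 differences of 0.88 and 0.61. Chalcone synthase 3 (Vv05s0136g00260) was lower, with 29.2, 27.7 and 38.5 FPKM in EL38 exposed, against 78.1, 47 and 82.7 FPKM in EL34 exposed (log2 difference -1.09, standard error 0.26, adjusted p = 0.00158). Chalcone synthases 1 (Vv14s0068g00930) and 2 (Vv14s0068g00920), the entry enzymes, overlapped between the stages and had adjusted p of 0.999 and 0.482. The flavonoid 3-monooxygenases Vv11s0016g01020, Vv16s0022g01390 and Vv18s0001g11520, which add a hydroxyl group to the B ring, were lower with log2 differences of -4.14, -1.98 and -0.89. The dihydroflavonol reductase genes Vv13s0064g00290 and Vv15s0048g01010 and the isomerase gene Vv13s0067g02870 were lower (-1.06, -0.69 and -0.40), and flavanone 3-hydroxylase Vv16s0098g00860 was not called (adjusted p = 0.0591). Without the libraries with seed transcripts the calls of Vv18s0001g14310, Vv18s0001g11520, Vv13s0064g00290 and Vv13s0067g02870 ended, with adjusted p of 0.0652, 0.242, 0.097 and 0.275.

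Phenylpropanoid genes upstream of flavonoids and stilbenes were mostly higher. Of 18 tested, 10 (55.6%) were higher and 3 (16.7%) lower, against 27.6% and 31% of all genes. The median log2 difference was 0.83 in exposed berries and 0.88 in control berries. Phenylalanine ammonia-lyase (PAL) takes the first step out of phenylalanine, and 1 of its genes, Vv13s0019g04460, had 62.6, 56.6 and 64 FPKM in EL38 exposed, against 11, 10.2 and 13.2 FPKM in EL34 exposed (log2 difference 2.41, standard error 0.18, adjusted p = 4.16e-09). Another, Vv06s0004g02620, was lower, with 3.96, 5.98 and 4.83 FPKM in EL38 exposed, against 10.1, 8.99 and 11.6 FPKM in EL34 exposed (log2 difference -1.05, standard error 0.22, adjusted p = 4.79e-04). The next enzymes of the path were higher. Trans-cinnamate 4-monooxygenase Vv11s0065g00350 had 6.35, 8.83 and 37.4 FPKM in EL38 exposed, against 1.76, 0.54 and 1.19 FPKM in EL34 exposed (log2 difference 3.48, standard error 0.53, adjusted p = 2.13e-05), and 4-coumarate-CoA ligase Vv02s0109g00250 had 10.2, 8.84 and 9.94 FPKM in EL38 exposed, against 1.38, 0.882 and 1.69 FPKM in EL34 exposed (log2 difference 2.82, standard error 0.32, adjusted p = 7.33e-07). Caffeic acid O-methyltransferase Vv16s0098g00850, of lignin synthesis, was lower (log2 difference -1.95, adjusted p = 1.79e-07).

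All 3 tested stilbene synthase genes, out of 5 in the list, were called higher in EL38 exposed, against 27.6% of all genes tested. The products of stilbene synthases are resveratrol-type defence compounds. Vv16s0100g01100 was at 9.23, 6.24 and 12.1 FPKM in EL38 exposed, against 0.459, 0.349 and 0.115 FPKM in EL34 exposed (log2 difference 4.57, standard error 0.50, adjusted p = 5.36e-07). In control berries it reached 26.2 and 35.6 FPKM at EL38, against 0.521, 0.158 and 0.207 FPKM at EL34, above the ripe exposed samples. Vv10s0042g00860 was at 10.6, 10.5 and 4.22 FPKM in EL38 exposed and was listed at 0 in the 3 EL34 exposed samples and in all 5 control samples of the 2 stages. The remaining one, Vv16s0100g01040, was at 0.219, 0.624 and 3.29 FPKM in EL38 exposed, against 0.0951, 0 and 0.0574 FPKM in EL34 exposed (log2 difference 2.67, standard error 0.66, adjusted p = 0.00212; 0.0529 without the libraries with seed transcripts). The stilbene synthases form a large family of close copies, so the split of reads between its members is uncertain. All 5 members of the list stood in the study's tables of exposure responses, which were chosen on these samples.

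Among the 12 largest rises named by rule were genes with roles in fatty acids and waxes, which belong to no list and were grouped after their values were seen. Those listed at 0 in EL34 exposed rank by a difference that depends on the pseudocount. The stearoyl-ACP desaturase Vv05s0094g00740, which puts the first double bond into stearic acid, was at 85.1, 68.4 and 123 FPKM in EL38 exposed, against 0.0981, 0.0986 and 0.0646 FPKM in EL34 exposed (log2 difference 8.91, standard error 0.41, adjusted p = 1.43e-11). Its neighbour in number Vv05s0094g00730 was at 14.5, 12.8 and 20.5 FPKM in EL38 exposed, against 0.19, 0.194 and 0.127 FPKM in EL34 exposed (log2 difference 5.87, standard error 0.37, adjusted p = 6.03e-10). Both were under 0.2 FPKM in all EL34 exposed samples. Wax synthase Vv15s0046g00710, which joins fatty alcohols to acyl groups, was at 7.82, 4.67 and 21.7 FPKM in EL38 exposed and listed at 0 in EL34 exposed. The pathogen-inducible alpha-dioxygenase Vv14s0066g01690, an oxidiser of fatty acids, was at 7.22, 1.79 and 16.3 FPKM in EL38 exposed and likewise listed at 0 in EL34 exposed. A mandelonitrile lyase-like gene (Vv16s0100g00240) and the adjacent GMC oxidoreductase (Vv16s0100g00230) had 12.9, 9.42 and 34.3 FPKM and 13.2, 8.88 and 25.3 FPKM in EL38 exposed, against 0.27, 0 and 0 FPKM and 0.161, 0 and 0.0375 FPKM in EL34 exposed. In all 6 of these genes the highest EL38 exposed value was in replicate 3. BEE1 (Vv01s0011g03720), a bHLH factor that brassinosteroids induce in Arabidopsis, was at 40.9, 30.6 and 75.4 FPKM in EL38 exposed, against 0.629, 0.155 and 0.598 FPKM in EL34 exposed (log2 difference 6.49, standard error 0.48, adjusted p = 4.79e-09). The gene annotated erg-1 (Vv07s0005g00870) averaged 187 ± 86.8 FPKM in EL38 exposed and 0.717 ± 0.291 FPKM in EL34 exposed (SD, n = 3 each; log2 difference 7.80, standard error 0.41, adjusted p = 5.97e-11). RAB1A (Vv00s1603g00010), a GTPase of vesicle traffic, was at 33.7, 24 and 3.29 FPKM in EL38 exposed and listed at 0 in EL34 exposed, while in EL34 control it was at 13.8, 0 and 27.3 FPKM. Whether its values of exactly 0 are failed estimates was not tested, and no fold is given.

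Pathogenesis-related (PR) genes, which code for antifungal proteins that also accumulate in healthy ripening grapes, moved both ways. Of 33 tested, 10 (30.3%) were higher and 6 (18.2%) lower, against 27.6% and 31% of all genes. The share of rises was thus close to that of all genes. Of the 37 listed, 29 stood in the study's exposure tables. PR1 (Vv03s0088g00710) was at 199, 62.2 and 49.1 FPKM in EL38 exposed, against 0, 2.83 and 0.638 FPKM in EL34 exposed (log2 difference 7.14, standard error 1.08, adjusted p = 2.13e-05). In control berries PR1 was at 561 and 705 FPKM at EL38, against 0, 1.2 and 0.795 FPKM at EL34, so its ripe level in control was above every exposed sample, with a difference of changes that did not pass (adjusted p = 0.392). The PR10.3 genes Vv05s0077g01550 and Vv05s0077g01560 were at 8.32, 13 and 64.8 FPKM and 44.1, 23.7 and 89.7 FPKM in EL38 exposed, against 1.23, 0 and 0 FPKM and 0.928, 2.18 and 0.653 FPKM in EL34 exposed. Both were called higher, with adjusted p of 1.58e-05 and 4.55e-06. In control berries Vv05s0077g01560 was at 167 and 247 FPKM at EL38, against 0.528, 0.923 and 1.36 FPKM at EL34. WRKY70 (Vv08s0058g01390), a regulator of salicylic acid defence in Arabidopsis, was at 15.3, 4.64 and 2.61 FPKM in EL38 exposed, against 0, 0.0986 and 0.452 FPKM in EL34 exposed (log2 difference 4.72, standard error 0.86, adjusted p = 1.42e-04), and WRKY51 (Vv07s0031g01710) had 32.8, 13.6 and 7.33 FPKM in EL38 exposed, against 2.41, 2.26 and 1.74 FPKM in EL34 exposed (log2 difference 2.75, standard error 0.43, adjusted p = 3.14e-05). PR1, WRKY70 and WRKY51 were all highest in replicate 1 of EL38 exposed.

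The change of 4 of the 33 tested PR genes differed from control, against 1.17% of all genes tested. Each had a lower value in exposed, as did 0.888% of all genes, and they are named because they were called. Osmotin Vv02s0025g04250 was at 207, 74.5 and 72.1 FPKM in EL38 exposed, against 22.2, 10.5 and 16.3 FPKM in EL34 exposed, and at 559 and 549 FPKM in EL38 control, against 7.73, 5.58 and 10.4 FPKM in EL34 control (difference of changes -3.44, standard error 0.78, adjusted p = 0.0394). Beta-1,3-glucanase Vv08s0007g06060, which cuts fungal walls, was at 117, 38.5 and 23.4 FPKM in EL38 exposed, against 34.2, 34.4 and 19.2 FPKM in EL34 exposed, and at 284 and 258 FPKM in EL38 control, against 24.3, 24.1 and 24.5 FPKM in EL34 control (difference of changes -2.73, standard error 0.62, adjusted p = 0.0394). For both genes the EL38 exposed value nearest to control was that of replicate 1, the only EL38 exposed sample in the fifties like the 2 control samples, and it lay below both of them. Thaumatin Vv02s0025g04230 was at 2.68, 0.945 and 0.99 FPKM in EL38 exposed and 16.2 and 9.53 FPKM in EL38 control, and was listed at 0 in all samples of EL34. The other thaumatin of the 4, Vv04s0023g03550, was lower in ripe exposed berries, at 30.7, 29.5 and 17.4 FPKM in EL38 exposed, against 128, 110 and 93.8 FPKM in EL34 exposed (log2 difference -2.13, standard error 0.29, adjusted p = 6.37e-06), whereas in control it was at 104.8 and 84.9 FPKM at EL38, against 104, 99 and 135 FPKM at EL34 (difference of changes -1.88, standard error 0.43, adjusted p = 0.0417; called in 10 of 24 alternative settings). Treatment and number series cannot be told apart in the sixties, which hold no EL38 control sample. Within the fifties alone the differences of changes of the 4 genes were -3.16 to -1.70, and 0 of the 4 passed, as was so without the libraries with seed transcripts (adjusted p of 0.0824 to 0.114). Class IV chitinase Vv05s0094g00330 was at 4.31, 4.75 and 5.86 FPKM in EL38 exposed, against 22.3, 11.1 and 12.3 FPKM in EL34 exposed (log2 difference -1.53, standard error 0.51, adjusted p = 0.0156). Class I chitinase Vv00s1290g00010 was at 1.63, 0.997 and 1.2 FPKM in EL38 exposed, against 8.01, 479.9 and 125 FPKM in EL34 exposed (log2 difference -5.86, standard error 2.30, adjusted p = 0.0368). It followed the order of the seed storage genes over the EL34 exposed samples, and without replicates 2 and 3 its log2 difference was -2.59 (adjusted p = 0.552). Of 36 tested disease resistance genes, 16 were lower and 3 higher, and 12 and 0 without the libraries with seed transcripts. Their shares with all samples were 44.4% lower and 8.33% higher, against 31% and 27.6% of all genes. The largest fall was that of the nematode resistance-like gene Vv18s0117g00080, with 2.65, 2.09 and 1.0 FPKM in EL38 exposed, against 17.2, 23 and 17.3 FPKM in EL34 exposed.

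Heat shock genes, which code for chaperones that refold proteins, were lower in ripe exposed berries. Of 57 tested, 35 (61.4%) were lower and 1 (1.75%) was higher, against 31% and 27.6% of all genes. The median log2 difference was -1.04 in exposed berries, against 0.18 in control berries. Without the libraries with seed transcripts 19 were lower and 2 higher. Of the 57, 47 stood in the study's tables of exposure responses, which were chosen on these samples, so a gap between exposed and control at EL34 was in part a condition of entering the list. The 17.4 kDa class I heat shock protein Vv06s0004g05770 was at 17.7, 24.6 and 34.7 FPKM in EL38 exposed, against 216, 551 and 239.9 FPKM in EL34 exposed (log2 difference -3.62, standard error 0.38, adjusted p = 2.91e-07). The chaperone gene Vv08s0058g00210 was at 0.93, 6.95 and 6.37 FPKM in EL38 exposed, against 27.5, 130.2 and 36.6 FPKM in EL34 exposed (log2 difference -3.82, standard error 0.86, adjusted p = 0.0010). Replicate 2 of EL34 exposed, the library with most seed transcripts, was the highest sample for both genes, and the call of Vv08s0058g00210 ended without it and replicate 3 (adjusted p = 0.0591). The 1 gene called higher, heat shock protein 91 (Vv19s0090g00340), had a log2 difference of 0.29.

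The change of 7 heat shock genes from EL34 to EL38 differed between exposed and control berries. All 7 fell in exposed berries, while their log2 differences in control berries were -0.67 to 1.02. Over all genes 213 of 18140 (1.17%) were called for this difference, 52 (0.287%) with a higher and 161 (0.888%) with a lower value in exposed. MBF1C (Vv11s0016g04080), a co-activator of the heat response in Arabidopsis, was at 117, 175 and 185 FPKM in EL38 exposed, against 661, 997 and 929 FPKM in EL34 exposed, and at 145 and 186 FPKM in EL38 control, against 180, 158 and 182 FPKM in EL34 control (difference of changes -2.37, standard error 0.29, adjusted p = 6.83e-04). The ripe exposed samples thus lay near the control samples, and the veraison exposed samples stood apart from all others. Hsp70 (Vv18s0041g01230) was at 43.7, 50.2 and 58.8 FPKM in EL38 exposed, against 78.9, 141 and 102 FPKM in EL34 exposed, and at 38.7 and 46.5 FPKM in EL38 control, against 31, 27.9 and 32.2 FPKM in EL34 control (difference of changes -1.53, standard error 0.26, adjusted p = 0.00931). The others, named because they were called, were the 18.6 kDa protein Vv13s0019g03170 (-1.65), heat shock cognate 70 Vv06s0004g04470 (-1.70), the class II protein Vv04s0008g01490 (-1.95) and the 81-1 genes Vv02s0025g00280 (-2.01) and Vv16s0050g01150 (-2.96), with differences of changes in log2 and adjusted p of 0.0187 to 0.0431. In each of the 5 genes named last the EL38 exposed mean was above both control means, and the EL34 exposed mean was the highest of the 4 groups. Of the 7 differences 1 passed without the libraries with seed transcripts, that of MBF1C (adjusted p = 0.020), the others having adjusted p of 0.0555 to 0.245. Within the sample numbers in the fifties 3 passed, with differences of changes of -3.04 to -1.38 over the 7. The falls of Vv06s0004g04470, Vv04s0008g01490 and Vv16s0050g01150 in exposed berries lost their calls without the libraries with seed transcripts (adjusted p = 0.0582, 0.135 and 0.118).

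**Figure D4:**
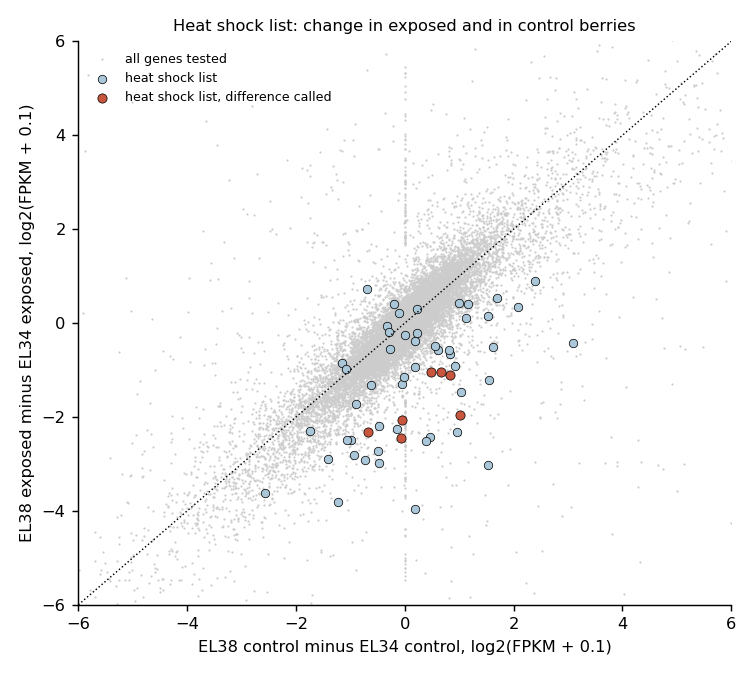
Log2 difference EL38 exposed minus EL34 exposed (vertical) against EL38 control minus EL34 control (horizontal) for all genes tested (grey) and the 57 heat shock genes, with the 7 called for the difference in red. The dotted line marks equal changes; most heat shock genes lie below it. The axes stop at 6, which leaves 222 genes outside.

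Osmoprotectant genes, which make galactinol, raffinose-type sugars and trehalose, were lower for 5 of 9 and higher for 1, and for 2 and 0 without the libraries with seed transcripts. Their shares with all samples were 55.6% lower and 11.1% higher, against 31% and 27.6% of all genes. Galactinol synthase Vv07s0005g01970 was at 23.3, 50.5 and 53.9 FPKM in EL38 exposed, against 79.8, 171 and 112 FPKM in EL34 exposed (log2 difference -1.53, standard error 0.42, adjusted p = 0.00459), and the more abundant Vv01s0127g00470 at 293, 238 and 244 FPKM in EL38 exposed, against 655, 398 and 665 FPKM in EL34 exposed (log2 difference -1.12, standard error 0.35, adjusted p = 0.0111). In control berries Vv07s0005g01970 was at 4.27 and 7.07 FPKM at EL38, against 11, 4.42 and 6.33 FPKM at EL34. Another galactinol synthase, Vv14s0060g00810, was not called (adjusted p = 0.318). Of the stachyose synthase genes Vv00s0878g00020 was lower (-0.84), Vv17s0000g09670 higher (0.32, called in 10 of 18 alternative settings) and Vv07s0005g01680 not called (adjusted p = 0.355). The trehalose phosphate synthases Vv01s0026g00280 and Vv19s0014g00300 were lower by small amounts (-0.36 and -0.40). The calls of galactinol synthase Vv07s0005g01970, stachyose synthase Vv17s0000g09670 and both trehalose phosphate synthases ended without the libraries with seed transcripts, with adjusted p of 0.187, 0.0510, 0.162 and 0.320. Trehalose phosphatase Vv00s0304g00080 was at 1.61, 3.39 and 2.11 FPKM in EL38 exposed, against 1.24, 1.77 and 1.59 FPKM in EL34 exposed (adjusted p = 0.0917), and at 0.458 and 0.932 FPKM in EL38 control, against 1.75, 2.86 and 1.84 FPKM in EL34 control. It was the 1 gene of this list whose change differed from control (difference of changes 2.08, standard error 0.41, adjusted p = 0.0187), with an adjusted p of 0.0569 without the libraries with seed transcripts.

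Hormone lists held more falls than rises, with shares of falls not far from that of all genes. Auxin genes were lower for 13 (39.4%) and higher for 7 (21.2%) of 33, ethylene genes lower for 13 (38.2%) and higher for 6 (17.6%) of 34, and abscisic acid genes lower for 5 (38.5%) of 13 with 0 higher, against 31% lower and 27.6% higher of all genes. Of their members 28 of 35, 29 of 35 and 12 of 13 came from the developmental table of these control samples. With a filter of 5 FPKM 9 ethylene genes were lower and 1 higher, of 23 tested. For abscisic acid genes quantile normalization gave 4 lower and 2 higher, and 1 was lower and 0 higher without the libraries with seed transcripts. The SAUR gene Vv03s0038g01180, of an auxin-induced family, was at 9.67, 23 and 9.88 FPKM in EL34 exposed and was listed at 0 in all 3 EL38 exposed samples. SAUR9 (Vv04s0023g03230) was at 59.6, 29.3 and 17.2 FPKM in EL38 exposed, against 211, 345 and 281 FPKM in EL34 exposed (log2 difference -3.13, standard error 0.63, adjusted p = 3.72e-04). Auxin-induced protein 22D (Vv05s0020g04680) went the other way, with 39.2, 44.3 and 26.8 FPKM in EL38 exposed, against 4.03, 4.86 and 4.52 FPKM in EL34 exposed (log2 difference 2.99, standard error 0.29, adjusted p = 1.08e-07). ACC oxidase 1 (Vv00s2086g00010), of an enzyme that makes ethylene, was lower, at 24.3, 17.3 and 16.3 FPKM in EL38 exposed, against 110, 246 and 114 FPKM in EL34 exposed (log2 difference -2.93, standard error 0.23, adjusted p = 8.99e-09). Vv12s0028g02420, annotated only as a homolog of ACC oxidase, was lower too (-2.09). An AP2-like factor, Vv07s0005g00820, was higher, at 34.1, 44.8 and 56.7 FPKM in EL38 exposed, against 9.81, 6.01 and 16.2 FPKM in EL34 exposed (log2 difference 2.15, standard error 0.29, adjusted p = 5.39e-06). Gibberellin 2-beta-dioxygenase Vv10s0116g00410, which inactivates gibberellins, was at 3.87, 4.43 and 4.11 FPKM in EL38 exposed, against 45.5, 34.1 and 36.1 FPKM in EL34 exposed (log2 difference -3.18, standard error 0.44, adjusted p = 7.66e-06). In control berries the log2 difference was -3.51, at 1.44 and 0.239 FPKM at EL38, against 10.5, 5.04 and 10.2 FPKM at EL34.

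Genes of cell division and protein synthesis were more often lower than higher. Of 18 tested cell division genes 10 (55.6%) were lower and 2 (11.1%) higher. Of 38 ribosomal protein genes 24 (63.2%) were lower and 2 (5.26%) higher. Over all genes 31% were lower and 27.6% higher. Nearly all members of both lists (22 of 22 and 38 of 39) came from the developmental table. Tubulin beta-6 (Vv02s0025g03540), a building block of microtubules, was at 4.34, 4.87 and 4.2 FPKM in EL38 exposed, against 24.7, 25.6 and 20.9 FPKM in EL34 exposed (log2 difference -2.38, standard error 0.20, adjusted p = 1.84e-08). Tubulin beta-4 (Vv06s0009g02020) had a log2 difference of -1.87 and a kinesin motor gene (Vv14s0030g01360) one of -2.0. Chloroplast ribosomal protein L28 (Vv05s0049g01480) was at 46.2, 42.1 and 40.9 FPKM in EL38 exposed, against 139, 141 and 113 FPKM in EL34 exposed (log2 difference -1.60, standard error 0.17, adjusted p = 3.08e-07), and cytosolic L27A (Vv14s0066g00560) had a log2 difference of -1.13. The median log2 difference of the ribosomal genes was -0.57.

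Transcription factors and amino acid genes were close to the whole table in their shares. Of 70 transcription factors 17 (24.3%) were higher and 24 (34.3%) lower, and of 83 amino acid genes 25 (30.1%) were higher and 29 (34.9%) lower. MYB4 (Vv14s0006g01620), in Arabidopsis a repressor of phenylpropanoid genes, was at 0.13, 0.264 and 0.278 FPKM in EL38 exposed, against 4.12, 7.32 and 5.24 FPKM in EL34 exposed (log2 difference -4.12, standard error 0.22, adjusted p = 7.76e-11), and MYB61 (Vv07s0005g02480) had a log2 difference of -3.12. Of the S-adenosylmethionine synthetase genes, which make the main methyl donor, 1 rose and another fell. Vv08s0007g05000 was at 335, 260.4 and 378 FPKM in EL38 exposed, against 75.7, 57.4 and 76.5 FPKM in EL34 exposed (log2 difference 2.21, standard error 0.51, adjusted p = 0.00119). SAM1 (Vv07s0005g02230) was at 46.2, 38.3 and 28.1 FPKM in EL38 exposed, against 235, 204 and 196 FPKM in EL34 exposed (log2 difference -2.52, standard error 0.19, adjusted p = 6.05e-09). Glutamate decarboxylase Vv01s0011g06600, which turns glutamate into GABA, was higher (2.09), and aspartate kinase Vv01s0244g00140, at the head of lysine and threonine synthesis, lower (-1.69).

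Of the 13 most abundant annotated transcripts of the 2 stages 1 was called in the fit of all 23 samples and 7 in the fit of the 6 exposed samples. Over all genes tested 58.6% were called in the fit of all 23 samples and 9508 of 18140 in the fit of the 6. A gamma-thionin (Vv01s0010g02030), a small antimicrobial protein, was at 38728, 29499 and 13919 FPKM in EL38 exposed, against 34433, 46859.6 and 48398 FPKM in EL34 exposed (adjusted p = 0.288), and replicate 3 of EL38 was the lowest. The ripening-related kiwellin grip22 (Vv06s0004g02560) was at 9629, 9025 and 6339 FPKM in EL38 exposed, against 27272, 20293 and 23964 FPKM in EL34 exposed, and was called lower (log2 difference -1.53, standard error 0.62, adjusted p = 0.0433; called in 8 of 18 alternative settings, adjusted p = 0.148 without the libraries with seed transcripts). The thaumatin VVTL1 (Vv02s0025g04330) was at 11284, 8728 and 8763 FPKM in EL38 exposed, against 21211, 15102 and 18932 FPKM in EL34 exposed, and class IV chitinase Vv05s0094g00340 at 10649, 8966 and 7202 FPKM in EL38 exposed, against 20965, 15083 and 18230 FPKM in EL34 exposed. Neither overlapped between the stages, yet neither passed in the fit of all 23 samples (adjusted p = 0.402 and 0.462). In the fit of the 6 exposed samples alone both passed, with adjusted p of 0.0209 and 0.0174. The same held for early nodulin 93 (Vv11s0016g04920), with 8600.4, 7734 and 7072 FPKM in EL38 exposed, against 4522, 2710.1 and 4438 FPKM in EL34 exposed, at adjusted p of 0.57 in all samples and 0.0144 in the 6. In the fit of all samples the spread of these genes included the green stages, at which VVTL1 averaged 1826 ± 1563 FPKM at EL33 exposed (SD, n = 3). The thaumatin Vv02s0025g04300, a phosphosulfolactate synthase gene (Vv00s0960g00010) and major latex protein 22 (Vv01s0011g05110) likewise passed in the 6 samples only, with adjusted p of 0.0071, 0.0427 and 0.0171. The cysteine protease inhibitor Vv06s0009g02230, GASA5 (Vv18s0001g09460) and the allergenic protein Pt2L4 (Vv12s0059g00590) overlapped between the stages and were not called, with adjusted p of at least 0.504.

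With the heat shock and PR genes, the difference of the ripening change from that of control berries was called for 81 of 3664 annotated genes tested. Of all genes tested 1.17% were called for it. The auxin-responsive gene Vv03s0038g00940 was at 1.28, 1.18 and 0.842 FPKM in EL38 exposed, against 37.1, 46.9 and 26.4 FPKM in EL34 exposed, and at 6.34 and 5.87 FPKM in EL38 control, against 34, 32.5 and 40.3 FPKM in EL34 control (difference of changes -2.40, standard error 0.32, adjusted p = 0.00122). CYP76C4 (Vv02s0012g02340), a cytochrome P450, was at 0.659, 0.512 and 0.413 FPKM in EL38 exposed, against 9.79, 8.69 and 6.75 FPKM in EL34 exposed, and at 2.46 and 2.3 FPKM in EL38 control, against 8.11, 7.74 and 9.48 FPKM in EL34 control (difference of changes -1.98, standard error 0.23, adjusted p = 3.01e-04). These 2 genes were alike at EL34 in both treatments and lower in exposed than in control berries at EL38. The reverse held for the glutathione transferase GSTU19 (Vv19s0093g00310), which was at 19.4, 27.6 and 24.7 FPKM in EL38 exposed, against 53.8, 89.1 and 59.3 FPKM in EL34 exposed, and at 25.6 and 28.8 FPKM in EL38 control, against 19.9, 19.6 and 19 FPKM in EL34 control (difference of changes -1.95, standard error 0.27, adjusted p = 0.00184). The ripening-regulated gene DDTFR8 (Vv13s0047g00110) was at 46.3, 53.7 and 69.7 FPKM in EL38 exposed, against 368, 657 and 432 FPKM in EL34 exposed, and at 43.7 and 52.4 FPKM in EL38 control, against 66.7, 55.1 and 63.4 FPKM in EL34 control (difference of changes -2.72, standard error 0.35, adjusted p = 0.0012). Both stood high in EL34 exposed only. The Rab/Ypt GTPase Ara4-interacting gene Vv02s0025g04060, of vesicle traffic, had means that ran opposite ways, at 113, 163.3 and 145 FPKM in EL38 exposed, against 177, 247 and 203 FPKM in EL34 exposed, and at 62.1 and 60.4 FPKM in EL38 control, against 31.9, 33.1 and 39.5 FPKM in EL34 control (difference of changes -1.40, standard error 0.32, adjusted p = 0.0417; called in 11 of 24 alternative settings). Its fall in exposed berries was called with all samples (adjusted p = 0.0279) and not without the libraries with seed transcripts (0.377). The count of 213 rests on 2 EL38 control samples. Without EL38 control replicate 2 it was 43, without EL38 control replicate 1 126, without EL34 control replicate 1 131, without EL34 control replicate 2 125, without the 2 libraries with seed transcripts 77, within the sample numbers in the fifties 100, and in a fit of only the 11 samples of the 2 stages 25.

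**Figure D5:**
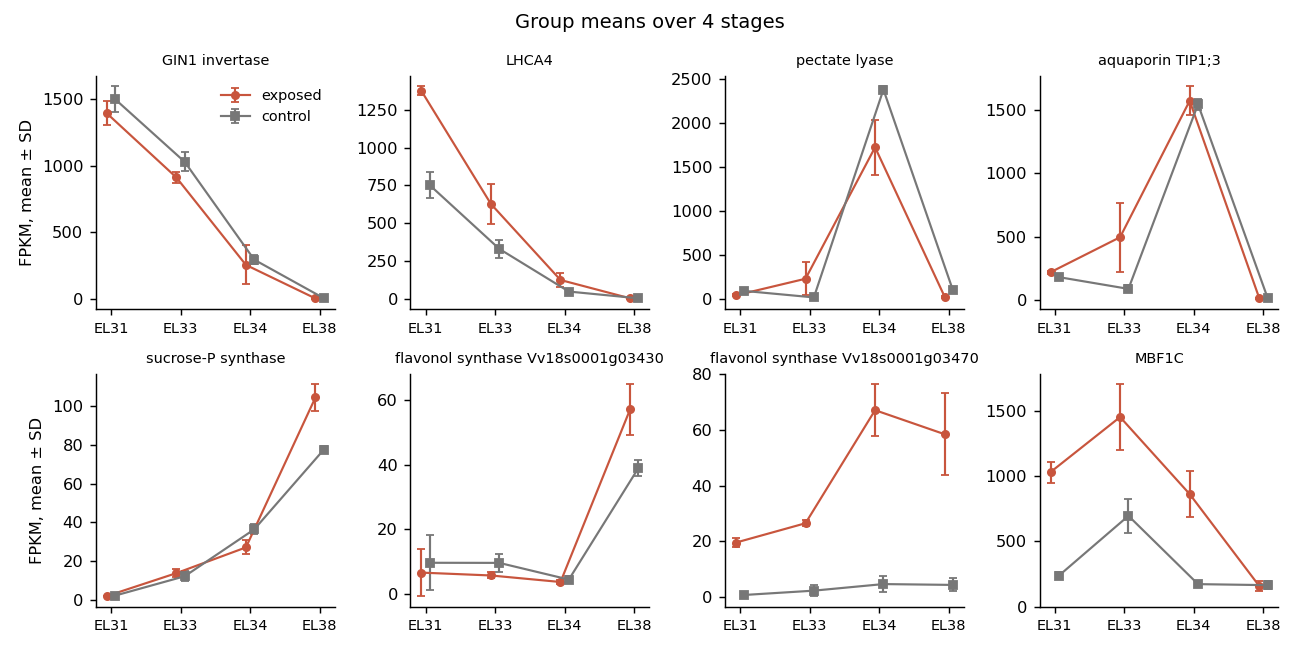
Group means of FPKM with SD at EL31, EL33, EL34 and EL38 for 8 genes of the text, in exposed (red) and control (grey) berries, with 3 samples per group and 2 in EL38 control. GIN1 and LHCA4 decline over all 4 stages, the pectate lyase Vv17s0000g09810 and TIP1;3 peak at EL34, sucrose-phosphate synthase is highest at EL38, and MBF1C is higher in exposed than in control berries up to EL34.

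The changes between EL34 and EL38 were set against the earlier green stages EL31 and EL33 of exposed berries as a description. Of the 3017 genes called lower by at least 1 log2, 1658 (55%) had their highest exposed mean at EL31, 450 (14.9%) at EL33 and 909 (30.1%) at EL34, and 1282 declined at each step. Of the 2083 called higher, 1850 (88.8%) had their highest exposed mean at EL38 and 601 increased at each step. GIN1 belonged to the steady decline, with exposed means of 1396 ± 89.9, 913 ± 41.5, 255 ± 146 and 2.75 ± 0.405 FPKM at EL31, EL33, EL34 and EL38 (SD, n = 3 each). Pectate lyase Vv17s0000g09810 peaked at veraison, with 41.4 ± 11.7, 229.9 ± 188, 1724 ± 313 and 25.7 ± 9.73 FPKM at the 4 stages. Sucrose-phosphate synthase Vv05s0029g01140 had higher means at each stage, with 2.23 ± 0.0318, 14 ± 2.21, 27.2 ± 3.63 and 104 ± 6.79 FPKM. MBF1C had exposed means of 1030.4 ± 79.9, 1452 ± 253.7, 862 ± 177 and 159 ± 36.5 FPKM, so its ripe level was the lowest of the 4 stages. The PAL gene Vv13s0019g04460 had 2 high stages, with exposed means of 47.5 ± 0.865 FPKM at EL31 and 61.1 ± 3.94 FPKM at EL38, and 4.81 ± 0.531 and 11.5 ± 1.59 FPKM between them. MybF1 had exposed means of 54.6 ± 8.41 FPKM at EL31 and 3.66 ± 1.22 FPKM at EL38.

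Genes listed at exactly 0 in a whole group were common, with 212 of the tested genes at 0 in all EL38 exposed samples and 232 in all EL34 exposed samples. The unannotated gene Vv05s0049g00520 was at 45641, 38941 and 49029 FPKM in EL34 exposed and was listed at 0 in EL38 exposed and in all 5 control samples of the 2 stages. The unannotated Vv17s0000g09800 was at 6938, 11132 and 2976 FPKM in EL34 exposed and 4649.8, 4426 and 11640.3 FPKM in EL34 control, and listed at 0 at EL38 in both treatments. The unannotated Vv14s0006g02100 and Vv18s0001g05100 were at 504, 326 and 122 FPKM and 145, 232 and 40.5 FPKM in EL38 exposed and were listed at 0 in EL34 exposed. Vv14s0006g02100 was called in 10 of 18 alternative settings, and its call ended without the libraries with seed transcripts. Cytochrome c oxidase subunit 6b (Vv02s0012g00490), of a complex that every cell uses, was likewise listed at 0 in the 3 EL38 exposed samples and was at 3.09, 2.98 and 5.61 FPKM in EL34 exposed. Whether an exact 0 is a failed estimate was not tested. For a gene listed at 0 in a whole group a fitted difference depends on the pseudocount and is neither a fold change nor a bound.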

How the data were processed

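The authors sequenced poly(A) RNA on an Illumina instrument, mapped reads with TopHat to the V1 grapevine genome and estimated FPKM per gene with Cufflinks, and the deposited table holds these FPKM values for 23 samples with no counts. CASAVA 1.8.2 is also named in the submitters' processing notes. The authors had left out another EL38 control sample as an outlier. Depth per sample is unknown, and no counting interval is given.

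FPKM plus 0.1 was log2-transformed. Genes were tested where the mean of EL38 exposed or of EL34 exposed reached 1 FPKM, with limma 3.58.1 (R 4.3.3), with 1 mean for each of the 8 groups of stage and treatment, moderated variances with a trend, and Benjamini-Hochberg adjustment over all 18140 genes. A gene was called at an adjusted p of at most 0.05. The difference of changes is EL38 minus EL34 in exposed, minus the same in control, from the same fit. The authors' own tests, made on aligned reads, were not used. The script was tested on simulated data of 17019 genes, in which 98 genes changed by 1 log2 and 100 by 2 log2. The fit called 65.3% and 81% of these and 13 of 16821 unchanged genes. Far fewer genes changed there than the 58.6% called in the data, and the noise was independent between genes. These rates therefore do not carry over to the comparison itself.

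Gene names and the 20 lists came from annotations in the study's supplementary tables by keyword, plus its amino acid genes, so 3664 of the tested genes have an annotation. Members and lists were chosen with earlier results of these data known. Genes were named by rule. The rule took the 12 largest rises and 12 largest falls at 5 FPKM or more without overlap, up to 3 of each direction in every list, the genes measured by RT-PCR, the flavonoid, osmoprotectant and seed lists, the 10 annotated genes with the lowest adjusted p for the difference of changes, the 10 most abundant of each stage, and 2 unannotated genes in each direction. Exceptions are stated where they occur. Alternatives covered the pseudocount, the filter, scaling, the samples fitted, a replicate block, the variance trend, the threshold and each left-out sample. Leaving out the 2 libraries with seed transcripts, or replicate 1 of both exposed groups, and fitting the difference of changes within sample numbers in the fifties, were chosen after seeing the data. Figures were drawn with matplotlib 3.10.9.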

Additional observations from a re-analysis of the deposited data

Results flagged for a closer look

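The change from EL34 to EL38 differed between exposed and control berries for 213 genes in limma's test of that difference. The genes of the report among them had fitted differences of changes, exposed minus control on the log2 scale, of -2.37 for MBF1C, -2.72 for DDTFR8, -1.95 for GSTU19, -2.40 for the auxin-responsive Vv03s0038g00940, -1.98 for CYP76C4, -2.29 for the acid phosphatase Vv07s0005g04130 (called in 15 of 24 alternative settings), -1.88 for the thaumatin Vv04s0023g03550 (10 of 24), -1.40 for the Rab/Ypt GTPase Ara4-interacting gene and 2.08 for trehalose phosphatase. For the acid phosphatase the 2 changes ran the same way, and exposed berries fell further, to 1.86, 2.0 and 0.591 FPKM in EL38 exposed, against 6.63 and 7.7 FPKM in EL38 control.

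Some of these genes were listed at 0 in a whole group. Their fitted values depend on the pseudocount and are neither fold changes nor bounds. They were wax synthase Vv15s0046g00710 (3.45), stilbene synthase Vv10s0042g00860 (6.30), cytochrome c oxidase subunit 6b (-4.36), CYP71A26 Vv17s0000g09540 (8.44) and the unannotated Vv05s0049g00520 (-18.76). CYP71A26 was at 5.28, 2.99 and 1.4 FPKM in EL38 exposed and listed at 0 in EL34 exposed, and at 0 and 2.54 FPKM in EL38 control, against 3.3, 5.92 and 11 FPKM in EL34 control.

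The genes not described so far were all highest in EL34 exposed. The 2-oxoglutarate-dependent oxygenase gene Vv03s0063g01310 was at 1.89, 1.53 and 1.66 FPKM in EL38 exposed, against 7.0, 6.95 and 6.46 FPKM in EL34 exposed, and at 1.81 and 1.8 FPKM in EL38 control, against 1.66, 2.37 and 1.65 FPKM in EL34 control (difference of changes -1.91). The protein kinase gene APK1B (Vv03s0038g03800) had a difference of changes of -1.17 and the abscisic acid-responsive HVA22a (Vv18s0001g07780) one of -0.65, the smallest of these genes in size, called in 9 of 24 alternative settings.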

How the results depend on the processing

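The count of genes called between EL38 exposed and EL34 exposed was 10633. It stayed between 8611 and 11810, within 1.5 times, in every alternative that was counted and kept more than 1 sample in both exposed groups. None of those 10633 genes was called in the opposite direction in these. The absence of opposite calls did not hold within sample numbers in the fifties, which leave 1 exposed sample per stage. Leaving out 1 exposed sample gave 9646 to 10075. The count for the difference of changes moved more. It was 213, and 343 with a pseudocount of 1 FPKM, 25 in the fit of 11 samples, 36 at an adjusted p of at most 0.01, 77 without the libraries with seed transcripts, 100 within sample numbers in the fifties, and 43 to 294 with 1 sample left out, the lowest without EL38 control replicate 2. The causes of these shifts were not tested, apart from the stricter threshold and the fewer samples.

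The main fit did not pair the samples. Sample numbers share their endings across stages, and the study describes its replicates as vine panels, so panels may repeat between stages. Deviations from the group means of same-numbered EL38 and EL34 exposed samples correlated at -0.06 to 0.02. With 3 samples per group these correlations cannot show whether the samples were paired. With the replicate block 11391 genes were called, and 542 for the difference of changes.

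Of 141 named genes called, 24 lost the call with a sample left out, 25 in another alternative, and 32 without the libraries with seed transcripts. Signs turned for 18 named genes, of which 1, PM34, was called in both directions (-2.68 and adjusted p = 0.00812 with only sample numbers in the sixties). Under quantile normalization the log2 difference was 0.16 for ELIP1, 0.12 for seed maturation protein PM23 (Vv18s0001g00090), 0.050 for gamma-thionin, 0.11 for ASR2 (Vv18s0072g00380) and 0.25 for the cysteine protease inhibitor, and with median-of-ratios scaling it was 0.029 for PM23. With 1 sample left out it ranged from -0.74 to 0.69 for oleosin Vv14s0066g00710, -0.42 to 0.076 for CAB-1, -0.10 to 0.091 for chalcone synthase 1, -2.85 to 0.096 for seed maturation protein PM34 (Vv14s0128g00340), -0.0799 to 0.0859 for PM23, -0.027 to 0.16 for Pt2L4, -0.081 to 0.17 for the invertase inhibitor Vv16s0022g00960, -0.36 to 0.0021 for Vv18s0001g03470 and -0.25 to 0.041 for the cysteine protease inhibitor. Without the libraries with seed transcripts it was 0.028 for CAB-1, -0.18 for chalcone synthase 1, 0 for globulin Vv07s0005g03400, 0.31 for globulin-1 (Vv07s0151g00640), 2.54 for PM34 (adjusted p = 0.0274), 0.13 for PM23, 1.56 for PM31 (Vv18s0001g01570), 0.39 for steroleosin (Vv18s0001g06750), -0.19 for the invertase inhibitor and 0.016 for the cysteine protease inhibitor. With only sample numbers in the sixties it was 0.083 for Vv18s0001g03470, 0.058 for chalcone synthase 2, -0.82 for oleosin Vv14s0066g00710 and -0.011 for GASA5.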

Other observations

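Further seed genes followed the storage proteins in EL34 exposed. Globulin-1 (Vv07s0151g00640) was at 3.64, 2.79 and 2.7 FPKM in EL38 exposed, against 2.41, 229.8 and 67.1 FPKM in EL34 exposed, and seed maturation protein PM31 (Vv18s0001g01570) at 8.52, 14 and 13.5 FPKM in EL38 exposed, against 3.93, 42.4 and 44.5 FPKM in EL34 exposed. Both were highest in replicates 2 and 3 of EL34 exposed, and neither was called. Seed maturation protein PM23 (Vv18s0001g00090) differed from them, at 38.2, 32.1 and 32.6 FPKM in EL38 exposed, against 31.3, 38.5 and 33.2 FPKM in EL34 exposed, with all samples in a narrow range. Outside these stages, EL33 control replicate 1 had a summed seed list level of 1045 FPKM, against 185 and 199.5 FPKM in the other EL33 control samples.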
